A study of Mus musculus with 15 samples.

Results

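The genes described here encode the enzymes, carriers and import factors that burn fatty acids in mitochondria and peroxisomes, together with a nuclear receptor and a coactivator that regulate them. The list named 46 mouse genes. Each was found by its symbol in the platform annotation, and where several probe sets carried a gene, the brightest over all 15 arrays stood for it. A probe set of 1 gene was found for 44 of the 46, out of 18193 genes with such a probe set, and all 44 were among the 16860 genes bright enough to be tested. Cpt1b had only a probe set shared with other genes and Acsl1 was not matched, so neither is described.

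The arrays came from a TRAP study of mouse kidney. TRAP, translating ribosome affinity purification, pulls tagged ribosomes out of a tissue lysate and profiles the messenger RNA they carry. All mice carried the transgene Tg:Col1a1-eGFPL10a, in which a promoter and enhancer element of the collagen α1(I) gene drives a ribosomal protein, L10a, fused to enhanced green fluorescent protein, on a C57/129sv background. Both sexes were included, with a developmental stage given as P14-P300. The bound fraction is labelled as kidney pericytes, and the unbound fraction is the material that the purification left behind. Obstruction was of 1 ureter, and the sham-operated kidneys of day 0 served as controls. Each of the 5 groups had 3 arrays, numbered 1 to 15 as in their titles: bound day 0 (arrays 1 to 3), unbound day 0 (4 to 6), bound day 2 (7 to 9), bound day 5 (10 to 12) and unbound day 5 (13 to 15). No unbound arrays from day 2 are described here. How the arrays relate to animals is not said in the labels, and every p-value therefore rests on array-to-array spread, which may be technical.

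In mitochondrial β-oxidation, a fatty acid is activated to an acyl-CoA, carried across the inner membrane on carnitine and shortened in a repeating spiral of dehydrogenation, hydration, further dehydrogenation and thiolysis. Peroxisomes run a similar spiral on very long-chain, branched and dicarboxylic substrates, pass electrons to oxygen, and rely on catalase to remove the hydrogen peroxide formed. Peroxins build the organelle and import its enzymes. The receptor PPARα, encoded by Ppara, and the coactivator PGC-1α, encoded by Ppargc1a, induce many of these genes, and the proximal tubule, which draws most of its energy from fatty acids, is the kidney segment best known for this programme.

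PPARα binds DNA as a partner of the retinoid X receptor, at repeats of the half-site AGGTCA. The 5 upstream sequences below belong to genes that fell in the bound fraction by day 5 and show examples with and without that motif. Each is 250 bases long, ends just before the annotated RNA start and is written 5′ to 3′ along the gene's strand. They come from RefSeq on GRCm38.p6, with capitals where AGGTCA occurs on either strand. Hadhb (chr5:30155003-30155252, plus strand) lies head to head with its partner gene Hadha. The next 3, Acadm (chr3:153944644-153944893, minus strand), Cpt1a (chr19:3323051-3323300, plus strand) and Slc27a2 (chr2:126552774-126553023, plus strand), hold the half-site, and Ehhadh (chr16:21787835-21788084, minus strand), with one of the largest falls, does not. Of the 18 genes that fell, those 3 alone held it in a window, so the 5 do not show how common it is.
Hadhb: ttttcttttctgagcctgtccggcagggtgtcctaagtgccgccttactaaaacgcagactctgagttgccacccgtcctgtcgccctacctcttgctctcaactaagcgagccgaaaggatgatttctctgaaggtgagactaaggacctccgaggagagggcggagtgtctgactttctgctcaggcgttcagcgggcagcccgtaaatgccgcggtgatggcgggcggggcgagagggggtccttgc
Acadm: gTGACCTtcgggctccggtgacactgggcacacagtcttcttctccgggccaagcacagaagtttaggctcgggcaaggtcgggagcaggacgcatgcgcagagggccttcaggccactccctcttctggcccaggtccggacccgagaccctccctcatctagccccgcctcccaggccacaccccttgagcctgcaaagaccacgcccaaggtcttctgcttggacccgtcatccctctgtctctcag
Cpt1a: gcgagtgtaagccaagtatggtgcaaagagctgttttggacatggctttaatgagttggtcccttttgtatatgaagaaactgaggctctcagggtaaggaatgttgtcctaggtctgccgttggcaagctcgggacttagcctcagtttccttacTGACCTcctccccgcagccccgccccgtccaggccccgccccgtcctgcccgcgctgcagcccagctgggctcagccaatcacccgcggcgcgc
Slc27a2: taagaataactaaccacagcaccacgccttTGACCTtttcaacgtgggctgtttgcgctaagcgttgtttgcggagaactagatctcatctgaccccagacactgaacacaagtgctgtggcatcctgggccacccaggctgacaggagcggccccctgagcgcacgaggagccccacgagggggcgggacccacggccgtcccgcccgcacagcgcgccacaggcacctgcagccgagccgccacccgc
Ehhadh: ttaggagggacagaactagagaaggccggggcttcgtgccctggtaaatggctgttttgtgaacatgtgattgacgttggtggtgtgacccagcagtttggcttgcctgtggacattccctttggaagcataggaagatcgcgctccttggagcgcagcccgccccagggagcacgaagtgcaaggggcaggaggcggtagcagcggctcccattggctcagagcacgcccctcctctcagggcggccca

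The start of Hadha, on the minus strand at position 30154980 of chromosome 5, and that of Hadhb, on the plus strand at position 30155253, lie 273 bases apart, and their 300-base windows share 228 bases. One stretch of sequence therefore lies upstream of both subunits of the trifunctional protein. In Acadm, Cpt1a and Slc27a2 the half-site began at positions -249, -94 and -220 from the start. RefSeq windows of 300 bases, 250 before and 50 after a start, were given for 40 of the 46 genes, as 46 windows. The half-site AGGTCA, read on both strands, was in 9 of these 46 (19.6%) and in 5340 of 32851 windows of all genes (16.3%). The direct repeat of that half-site with 1 base between the copies, which contains the half-site itself, was in 0 of the 46 windows and in 13 of all windows (0.0396%). These counts describe letters in short windows, and sites further away were not searched.

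Levels below are log2(intensity + 1) after quantile normalization of the 15 arrays, and a difference of 1 is a doubling on that scale. Arrays 6, 9, 12 and 15 were brighter than the rest, with hybridization control means of 12114 to 12905 against 4727 to 5864 on the other 11, and only the bound day 0 group held none of them. For Gapdh, a housekeeping gene, the signal at the 5′ end over that at the 3′ end was 0.0269 on array 11 and between 0.178 and 0.583 on the others, a low value being a sign of degraded RNA. Within groups the arrays correlated at 0.918 to 0.973, lowest in the bound day 2 group. Array 7 of that group stood apart from arrays 8 and 9: the median of 23 proximal tubule markers was 9.77 on it, against 7.19 and 7.76. The label was checked with marker lists. On day 0, 6 of 10 pericyte and smooth muscle markers (median difference 2.06), 11 of 14 fibroblast markers and 6 of 6 podocyte markers were higher in the bound fraction, and 0 of 23 proximal tubule markers passed the test between fractions. Messages of podocytes and of tubules were thus measured in the fraction labelled as pericyte. Of the proximal tubule markers, at most 1 of 23 was at or below the negative controls on any day 0 array.

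**Figure D1:**
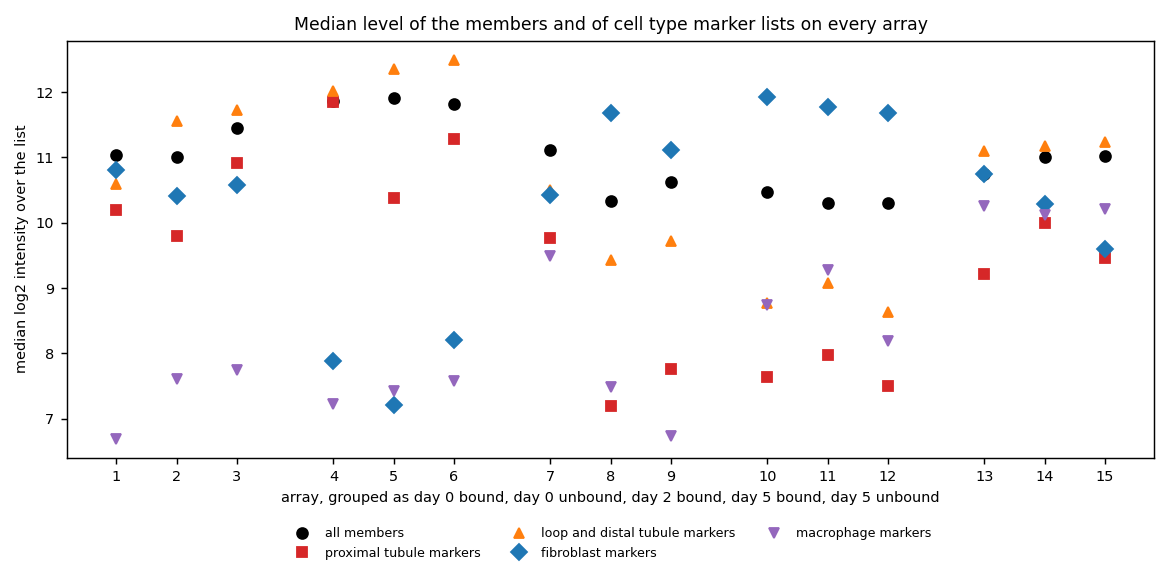
Median log2 intensity on each array (x axis: array number within its group) of the 44 genes of fatty acid oxidation and peroxisomes and of the marker lists for proximal tubule, loop and distal tubule, fibroblast and macrophage. The 44 genes ran between 11.00 and 11.46 on the bound day 0 arrays and between 10.30 and 10.46 on those of day 5, and array 7 sat above arrays 8 and 9 for the 44 genes and the proximal tubule markers.

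The first comparison asked which of these messages were held back with, or left out of, the tagged ribosomes in sham kidney. Most ran somewhat lower in the bound fraction, and 1 peroxin, Pex14, was higher there. Of the 44 genes, 40 had a lower mean in the bound fraction, and the median difference was -0.52, beside -0.13 over all genes tested. With limma and Benjamini-Hochberg adjustment over all genes, 1 was higher and 3 were lower, where 8.93% of all genes passed, 4.83% higher and 4.10% lower. In 30 of the 44 all 3 bound arrays lay below all 3 unbound arrays, as in 22.1% of all genes. In bulk fractions such as these, fewer cells of a type and less RNA per cell cannot be told apart.

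Pex14, part of the docking complex through which enzymes enter the peroxisome, was the gene that passed as higher. Pex5, Cpt1a and Cat also had a higher mean in the bound fraction (0.42, 0.18 and 0.01), without passing. It read 9.45, 9.23 and 9.63 on the bound arrays and 7.94, 7.75 and 7.73 on the unbound arrays. The lowest bound array was more than 1 unit above the highest unbound array. Pex14 was higher by 1.63 ± 0.24 (SE; 3.09-fold, limma adjusted p = 0.0022).

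The 3 lower genes act at different points. Phyh, phytanoyl-CoA hydroxylase, which starts the breakdown of the branched fatty acid phytanic acid, read 11.58, 11.82 and 12.01 bound and 12.83, 13.00 and 12.76 unbound. It was lower by 1.06 (log2 difference -1.06 ± 0.19 SE, limma adjusted p = 0.0060). Pex7, the import receptor for enzymes with an amino-terminal targeting signal, Phyh and thiolase among them, read 10.51, 10.61 and 10.63 bound and 11.34, 11.61 and 11.05 unbound. Its difference was -0.75 ± 0.21 (SE, limma adjusted p = 0.0439). Acaa2, the last enzyme of the mitochondrial spiral, had a difference of -0.73 ± 0.18 (SE, limma adjusted p = 0.0307), with bound values of 11.76, 11.52 and 11.92 and unbound values of 12.60, 12.28 and 12.49. The groups did not overlap in any of the 3.

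Larger differences that did not pass were found for Acot12, a thioesterase (-1.52 ± 0.77, adjusted p = 0.242), Pecr, peroxisomal trans-2-enoyl-CoA reductase (-1.29 ± 0.39, adjusted p = 0.0574), and Cpt2, the inner carnitine palmitoyltransferase (-1.10 ± 0.35, adjusted p = 0.0673), all by limma with SE. Acsm3, Acox2 and Acox3 (-1.21, -1.19 and -1.06) did not pass either. Cat, which encodes catalase, differed by 0.01 ± 0.26. The other probe sets of Cpt2 and Cat had the opposite sign (0.32 and -0.54). Over the 23 proximal tubule markers the median difference was -0.75 with 0 passing, over the fibroblast markers 2.09 and over the podocyte markers 4.88. The part of these cell types in the differences above was not tested. The count of 4 fell to 2 without array 1, 2, 4, 5 or 6, and 1 gene passed without the 4 bright arrays. Pex14 and Phyh passed with any single array left out, but Phyh was lost without the bright arrays and with arrays centred on their medians. Pex7 was lost whichever array was left out, and Acaa2 without array 1, 2, 4, 5 or 6.

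**Figure D2:**
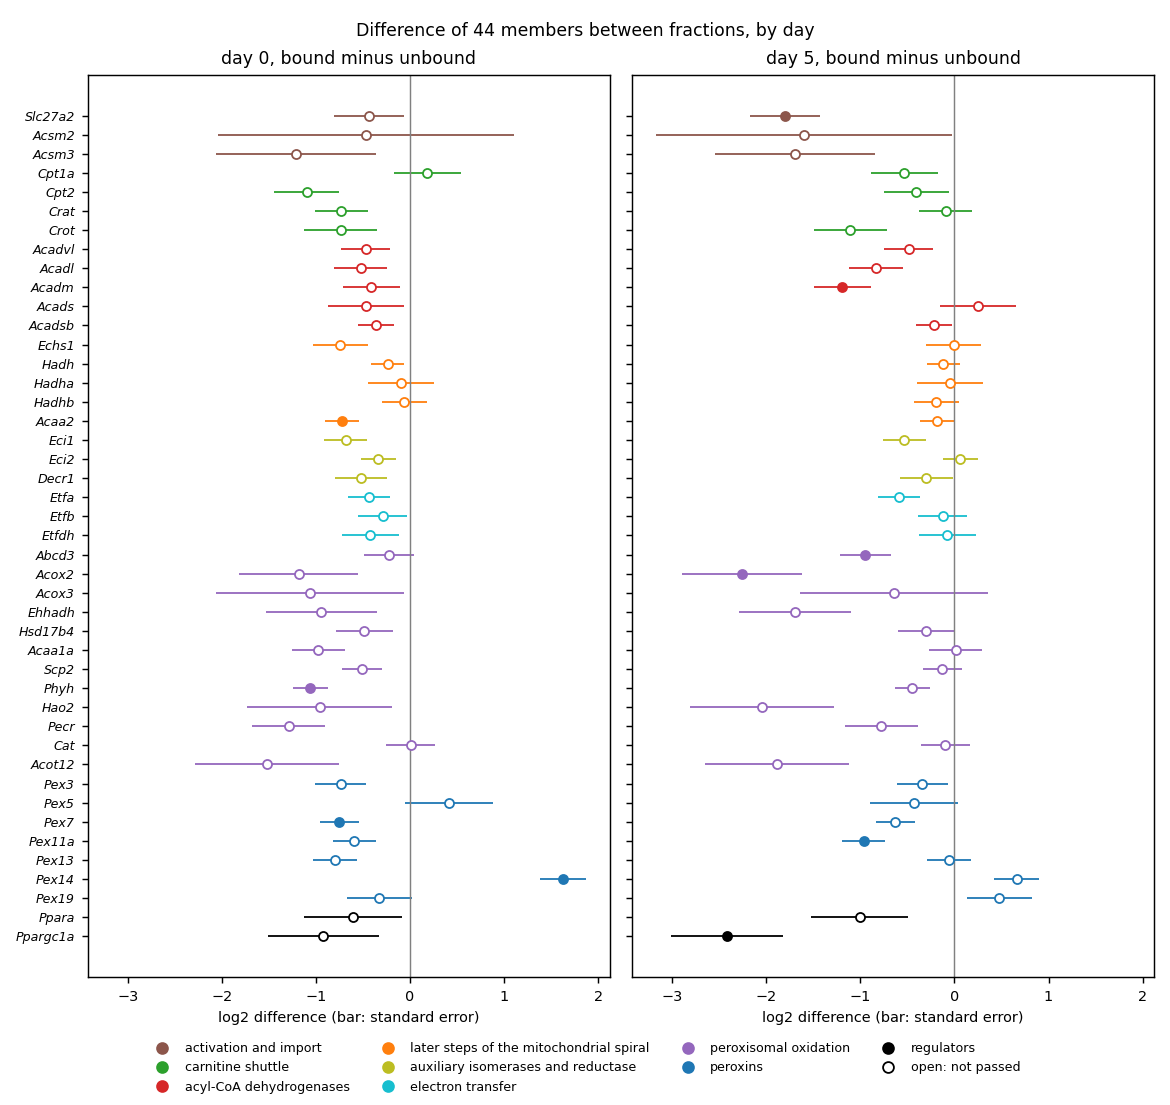
Log2 difference between the bound and the unbound fraction for the 44 genes on day 0 (left) and day 5 (right), with bars of 1 standard error, coloured by role, filled where the adjusted p was under 0.05. Pex14 stands at 1.63 on the right of zero on day 0, and on day 5 the filled points are the 6 genes lower in the bound fraction.

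On day 5 of obstruction the same contrast of fractions gave 0 higher and 6 lower genes of 44, where 14.1% of all genes passed, 6.38% higher and 7.76% lower. The 6 were a coactivator, a fatty acid importer, a mitochondrial dehydrogenase and 3 peroxisomal genes. The median difference of the 44 was -0.44, beside 0.03 over all genes. In 21 of the 44 the bound arrays lay wholly below the unbound arrays, as in 21.4% of all genes.

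Ppargc1a, the coactivator PGC-1α, read 8.10, 9.83 and 7.87 bound and 10.97, 11.03 and 11.06 unbound. The unbound arrays lay close together and the bound arrays were spread out, all of them lower. It was lower in the bound fraction by 2.42 (-2.42 ± 0.59 SE, limma adjusted p = 0.0207). Acox2, the peroxisomal oxidase of branched-chain acyl-CoAs and bile acid intermediates, was at 7.22, 7.66 and 5.90 bound and 9.01, 9.66 and 8.88 unbound (-2.26 ± 0.63 SE, limma adjusted p = 0.0354). Slc27a2, a fatty acid transporter that also activates very long chains, was at 11.73, 11.25 and 10.42 bound and 12.97, 13.16 and 12.66 unbound (-1.80 ± 0.37 SE, limma adjusted p = 0.0108). None of the 3 pairs of groups overlapped.

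Acadm, the medium-chain acyl-CoA dehydrogenase whose upstream sequence is printed above, read 11.04, 11.19 and 10.75 bound and 12.13, 12.36 and 12.05 unbound (-1.19 ± 0.30 SE, limma adjusted p = 0.0234). Pex11a, a peroxin of peroxisome division, differed by -0.96 ± 0.23 (SE, limma adjusted p = 0.0184), and Abcd3, a transporter of acyl-CoAs across the peroxisomal membrane, by -0.95 ± 0.27 (SE, limma adjusted p = 0.0364). All 3 groups of bound arrays lay below their unbound partners. The other probe set of Abcd3 was above the negative controls on 1 of 15 arrays, so it gives no check of this call. That of Pex11a, above them on all 15, differed by -0.41, and with averaged probe sets Pex11a lost its call.

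Marker lists of tubules, macrophages and endothelium had negative medians, as the 44 genes had. Of 23 proximal tubule markers 6 were lower in the bound fraction (median -1.85), as were 8 of 11 loop and distal tubule markers (median -1.97). Macrophage markers were lower in 2 of 11 (median -1.69). Of 11 endothelium markers 3 were lower and 1 was higher (median -0.95). Fibroblast markers were higher in 7 of 14 and podocyte markers in 4 of 6. The part of these cells in the result was not tested. The count of 6 fell to 1 without array 10, 14 or 15 and to 2 without array 12 or 13, and was 0 without the 4 bright arrays, where limma called 0 genes of all genes tested. Slc27a2 alone passed with any single array left out. With each array centred on its median instead of quantile normalization, 2 genes passed and the median of the 44 was 0.21, beside 0.41 over all genes. Slc27a2 lost its call under that centring.

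Whether the gap between fractions itself changed from day 0 to day 5 was tested as an interaction. By limma, 0 of the 44 genes passed, where 0.0178% of all genes did, and 5 of the 44 had an unadjusted p under 0.05. The median change was 0.09 for the 44 and 0.09 for all genes. The largest changes were those of Ppargc1a (-1.50 ± 0.84 SE, limma adjusted p = 0.433), Slc27a2 (-1.36 ± 0.53 SE, limma adjusted p = 0.291), Acsm2 (-1.13 ± 2.23 SE, limma adjusted p = 0.850) and Hao2 (-1.08 ± 1.09 SE, limma adjusted p = 0.681). Pex14, higher in the bound fraction on day 0, changed by -0.97 (limma adjusted p = 0.258). No gene called on either day passed the test of the difference between the days. The median of the 44 turned to -0.05 without array 1.

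On day 2 of obstruction 2 peroxisomal genes and 1 mitochondrial gene had fallen in the bound fraction. The contrast of bound day 2 with bound day 0 gave 0 higher and 3 lower genes of 44, where 9.27% of all genes passed, 5.60% higher and 3.67% lower. The median was -0.33, beside 0.00 over all genes, and in 9 of the 44 the day 2 arrays lay wholly below those of day 0, as in 10.1% of all genes.

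Ehhadh, the bifunctional enzyme that hydrates and dehydrogenates straight-chain and dicarboxylic substrates in the peroxisome and a classic target of PPARα, fell most among the 3 that passed. It read 11.13, 10.61 and 11.60 on day 0 and 10.18, 7.27 and 7.80 on day 2. Array 7 lay close to the day 0 arrays, and arrays 8 and 9 about 3 units below the lowest of them. Ehhadh fell by 2.69 (-2.69 ± 0.59 SE, limma adjusted p = 0.0142).

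Pex14 went from 9.45, 9.23 and 9.63 to 8.55, 8.17 and 7.65, with all 3 day 2 arrays below day 0 (-1.31 ± 0.24 SE, limma adjusted p = 0.0057). Acadsb, the dehydrogenase of short branched acyl-CoAs that also serves isoleucine breakdown, went from 11.66, 12.13 and 12.17 to 11.11, 11.16 and 11.01 (-0.89 ± 0.19 SE, limma adjusted p = 0.0124). In Acadsb array 7 lay with arrays 8 and 9. The only probe set of Acadsb is of a kind that can also hybridize to other genes.

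The largest difference of all was in Acsm2, a medium-chain acyl-CoA synthetase of the proximal tubule, and it did not pass. It read 11.88, 11.53 and 12.17 on day 0 and 11.92, 7.91 and 3.99 on day 2 (-3.92 ± 1.57 SE, limma adjusted p = 0.147). Array 7 was as high as day 0, and array 9 was below the brightest negative control. Hao2, a peroxisomal hydroxyacid oxidase, read 10.29, 6.82 and 10.55 after 11.65, 11.01 and 12.08 (-2.36 ± 0.77 SE, limma adjusted p = 0.0763). Acox2 differed by -1.59 ± 0.63 (SE, limma adjusted p = 0.145). Acox3, an oxidase of branched chains, had its day 2 mean at the level of the negative controls.

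This comparison depended on array 7. Without it 15 of the 44 passed, 2 higher and 13 lower, and without the 4 bright arrays 0 passed. Of the proximal tubule markers 7 of 23 fell (median -1.97), Slc34a1, the sodium phosphate cotransporter, among them (-3.54), with values of 8.58, 6.15 and 4.75 on arrays 7, 8 and 9. The fibroblast markers had a median of 0.63. The part of tubular RNA in the result was not tested. Pex14 passed with any single array left out, Ehhadh was lost without array 3 or 9, and Acadsb without array 2.

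By day 5 each role in the list held at least 1 gene that had fallen in the bound fraction. The bound day 0 arrays serve in this contrast, in that of day 2 and in the day 0 comparison of fractions, so that a gene such as Pex14, high on those 3 arrays, enters all of them. Of the 44 genes 18 fell and 3 rose, where 23.8% of all genes passed, 13.7% higher and 10.0% lower. The median was -0.73, beside 0.12 over all genes. In 24 of the 44 the day 5 arrays lay wholly below those of day 0, as in 16.8% of all genes, and in 3 wholly above, as in 23.7%. The fallen genes included 1 of 3 of activation and import, 1 of 4 of the carnitine shuttle, 2 of 5 acyl-CoA dehydrogenases, 2 of 5 of the later spiral, 1 of 3 auxiliary enzymes, 1 of 3 of electron transfer, 4 of 12 of peroxisomal oxidation, 4 of 7 peroxins and both regulators. The 3 that rose were 2 peroxins and a peroxisomal thiolase. In the carnitine shuttle, auxiliary enzymes and electron transfer the calls were those of Cpt1a, Eci1 and Etfdh. They depended on single arrays or on the probe set, as given below.

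**Figure D3:**
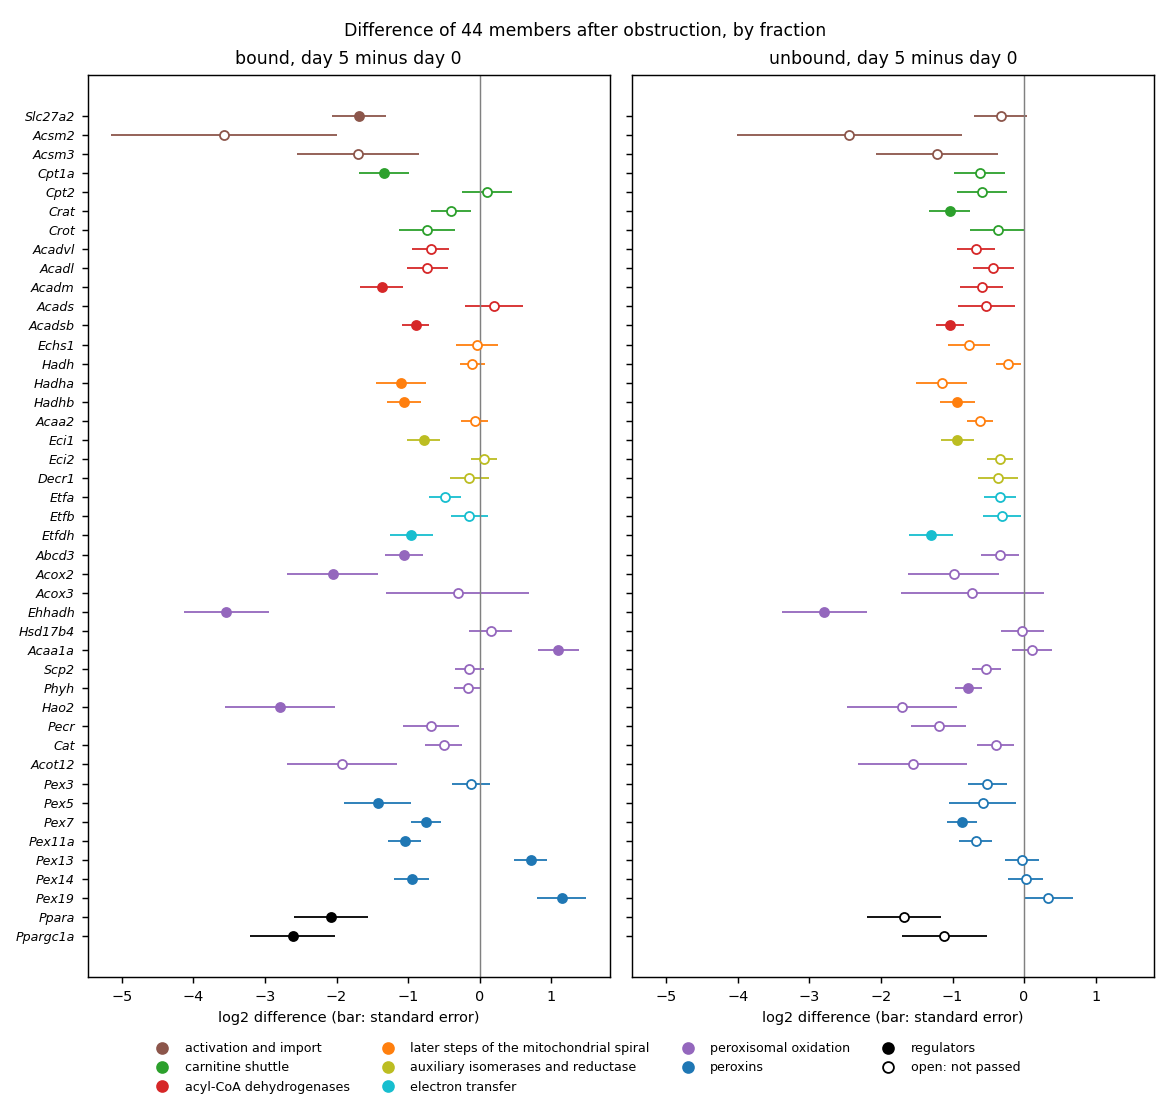
Log2 difference from day 0 to day 5 of obstruction for the 44 genes in the bound (left) and the unbound fraction (right), with bars of 1 standard error, coloured by role, filled where the adjusted p was under 0.05. In the bound fraction 18 filled points lie below zero and 3 above; in the unbound fraction 8 lie below and 0 above.

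Both regulators fell. Ppargc1a read 10.04, 11.62 and 11.98 on day 0 and 8.10, 9.83 and 7.87 on day 5, so that the highest day 5 array stayed just under the lowest of day 0 (-2.61 ± 0.59 SE, limma adjusted p = 0.0086). Ppara read 7.85, 8.45 and 8.91 on day 0 and 6.59, 5.82 and 6.58 on day 5, again without overlap (-2.07 ± 0.52 SE, limma adjusted p = 0.0138). The 5 probe sets of Ppargc1a all gave differences of -2.40 or lower. Those of Ppara, 3 in all, lay between -1.20 and -2.41.

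Import, activation and the carnitine step come next along the pathway. Slc27a2 went from 12.69, 12.72 and 13.07 to 11.73, 11.25 and 10.42 (-1.69 ± 0.37 SE, limma adjusted p = 0.0077). Cpt1a, the outer-membrane transferase that sets the rate at which long chains enter mitochondria, went from 11.13, 11.78 and 12.24 to 10.47, 10.07 and 10.61 (-1.34 ± 0.35 SE, limma adjusted p = 0.0180). Neither gene's groups overlapped. The other 2 probe sets of Cpt1a differed by 0.20 and -0.07, so its fall was seen by 1 of 3 probe sets. Its partner Cpt2 differed by 0.10 ± 0.35, Crat by -0.40 and the peroxisomal transferase Crot by -0.74, none of them passing. Acsm2 and Acsm3 differed by -3.57 ± 1.57 and -1.70 ± 0.85 without passing (limma adjusted p = 0.120 and 0.168).

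Within the spiral, Acadm and both genes of the trifunctional protein fell while several neighbours did not pass. Acadm went from 12.23, 12.17 and 12.67 to 11.04, 11.19 and 10.75, with no overlap (-1.37 ± 0.30 SE, limma adjusted p = 0.0074). Hadha, the subunit of the trifunctional protein with the hydratase and dehydrogenase activities, went from 10.15, 10.44 and 10.70 to 9.50, 9.10 and 9.39 (-1.10 ± 0.35 SE, limma adjusted p = 0.0399). Hadhb, the thiolase subunit, went from 12.11, 12.37 and 12.65 to 11.18, 11.36 and 11.40 (-1.06 ± 0.24 SE, limma adjusted p = 0.0083). On the probe sets used, the 2 genes differed by nearly the same amount and without overlap. The part of their shared upstream sequence in this was not tested. The other 2 probe sets of Hadhb gave -0.43 and -1.65. Acadsb (-0.89) fell too, as did Eci1 (-0.79), an isomerase for unsaturated chains, and Etfdh (-0.95), which hands electrons from the acyl-CoA dehydrogenases to ubiquinone. Hadh, Acaa2 and Echs1, the other enzymes of the later spiral, did not pass, and the 3 lay between -0.10 and -0.03 on the probe sets used. The other probe sets of Acaa2 gave -0.49 and -1.78, the latter above the negative controls on 14 of 15 arrays. Those of Hadh gave 0.0004 and -0.30. Acadvl and Acadl, the very long-chain and long-chain dehydrogenases, differed by -0.69 ± 0.26 and -0.73 ± 0.28 with their groups apart, and did not pass (limma adjusted p = 0.0758 and 0.0805, SE). Of the rest, Acads differed by 0.20, Eci2 by 0.06, Decr1 by -0.14, Etfa by -0.49 and Etfb by -0.15, none of them passing.

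In the peroxisome the largest change of the 44 genes that passed was again that of Ehhadh. It went from 11.13, 10.61 and 11.60 to 7.33, 8.07 and 7.31, with the highest day 5 array more than 2 units below the lowest of day 0 (-3.54 ± 0.59 SE, 11.6-fold, limma adjusted p = 0.0015). Hao2 went from 11.65, 11.01 and 12.08 to 8.75, 8.92 and 8.70 (-2.79 ± 0.77 SE, limma adjusted p = 0.0217). Acox2 went from 8.81, 8.72 and 9.41 to 7.22, 7.66 and 5.90 (-2.06 ± 0.63 SE, limma adjusted p = 0.0346). The day 5 arrays of both lay below day 0, with 1 unit or more between the groups. Abcd3 fell by 1.06. The D-bifunctional protein Hsd17b4, which does the same steps as Ehhadh on branched chains, differed by 0.16 ± 0.30, Cat by -0.50 ± 0.26 and the thiolase and carrier Scp2 by -0.14 ± 0.21, none of them passing. Phyh (-0.17), Pecr (-0.68) and Acox3 (-0.31) did not pass either, nor did Acot12 (-1.92), a thioesterase that was only listed with this role.

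Acaa1a, the peroxisomal thiolase that acts right after Ehhadh, rose. It went from 8.67, 8.81 and 8.89 to 10.09, 9.72 and 9.84, without overlap (1.10 ± 0.29 SE, limma adjusted p = 0.0166), and its other probe set differed by 0.99. These probe sets are both of a kind that can also hybridize to other genes. The near-identical Acaa1b has a probe set of its own, which read 10.23, 10.93 and 11.72 on day 0 and 9.70, 9.94 and 7.96 on day 5, the other way, and did not pass (-1.76 ± 0.78 SE, limma adjusted p = 0.123).

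The peroxins moved both ways. Pex5, the receptor that imports most matrix enzymes, went from 8.78, 9.54 and 9.97 to 7.71, 7.87 and 8.43 (-1.42 ± 0.47 SE, limma adjusted p = 0.0439), and Pex11a (-1.05), Pex14 (-0.95) and Pex7 (-0.75) also fell. Pex19, the chaperone of peroxisomal membrane proteins, went from 9.06, 8.55 and 8.31 to 10.14, 9.37 and 9.84 (1.14 ± 0.35 SE, limma adjusted p = 0.0320), and Pex13, a docking partner of Pex14, rose by 0.71. The groups did not overlap in these peroxins. Other probe sets of Pex19 differed by 0.69 and 0.12, of Pex13 by -0.19 and of Pex11a by 0.01. Pex3, which receives Pex19 at the membrane, differed by -0.12 ± 0.27.

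**Figure D4:**
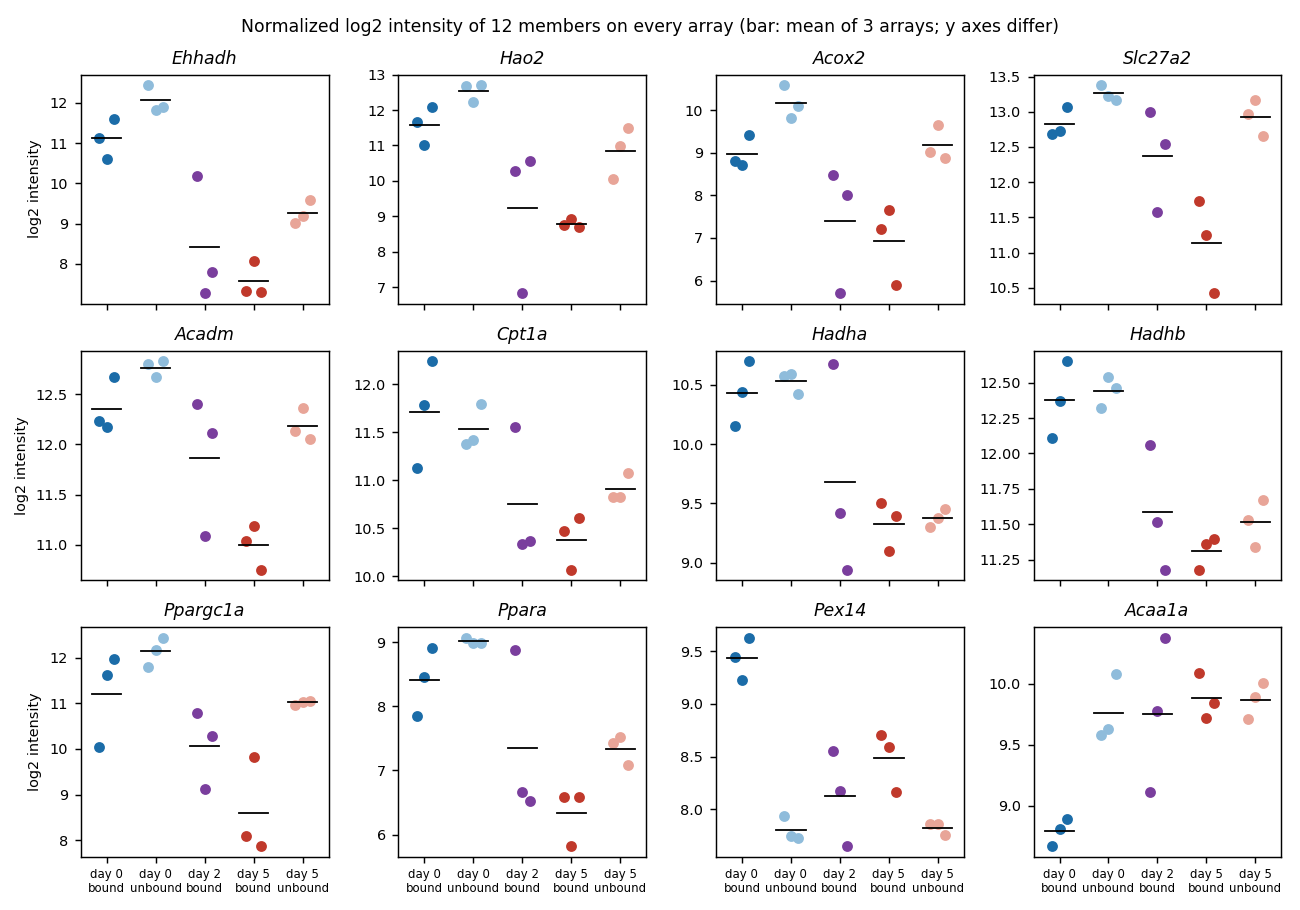
Normalized log2 intensity of 12 of the genes on every array (y axes, which differ between panels), by group on the x axis, with a point for each array and a line at the mean of 3 arrays. Ehhadh, Hao2, Acadm and Ppargc1a sit lower on the bound day 5 arrays than on any bound day 0 array, the bound day 2 arrays spread widely for Ehhadh and Hao2, and Pex14 sits higher on the bound day 0 arrays than on any other array.

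Marker lists of cell types changed in both directions in the bound fraction. Of 23 proximal tubule markers 18 fell (median -2.50), and their median level went from between 9.79 and 10.91 on day 0 to between 7.51 and 7.97 on day 5. Between 1 and 5 of the 23 were at or below the negative controls on each day 5 array, Slc5a12 on all 3, while Slc34a1 and Lrp2, the megalin receptor, stayed above them. Of 11 loop and distal markers 9 fell, as did 8 of 10 collecting duct, 6 of 6 podocyte and 6 of 11 endothelium markers. Fibroblast markers rose in 6 of 14, pericyte and smooth muscle markers in 5 of 10 and macrophage markers in 4 of 11. The part of these cells in the fall of the fatty acid genes was not tested.

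The count of 21 became 13, 8, 11, 14 and 12 without arrays 2, 3, 10, 11 and 12, in that order, and 8 without the 4 bright arrays (1 higher, 7 lower). With brightness as a term in the fit, 16 passed, and with arrays centred on their medians 11 did (2 higher, 9 lower). Ehhadh, Ppargc1a, Slc27a2, Acadm, Hadhb, Pex11a and Acadsb passed with any single array left out, but median centring ended the calls of Hadhb and Acadsb, and a fit on the 2 groups alone that of Acadsb. Leaving out the 4 bright arrays ended those of Ppargc1a, Slc27a2 and Acadm. Ppara was lost without array 3, Acaa1a without array 10, Cpt1a without array 3 or 11, Abcd3 and Pex14 without array 3 or 12, and Hao2 without array 3, 10 or 12. Etfdh and Pex7 were lost without array 2, 3, 10 or 11, Pex19 without array 2, 3, 10 or 12, and Acox2 without array 1, 2, 3, 10 or 12. Pex5 and Hadha were lost without array 2, 3, 10, 11 or 12, and Eci1 and Pex13 whichever of arrays 1, 2, 3, 10, 11 and 12 was left out.

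**Figure D5:**
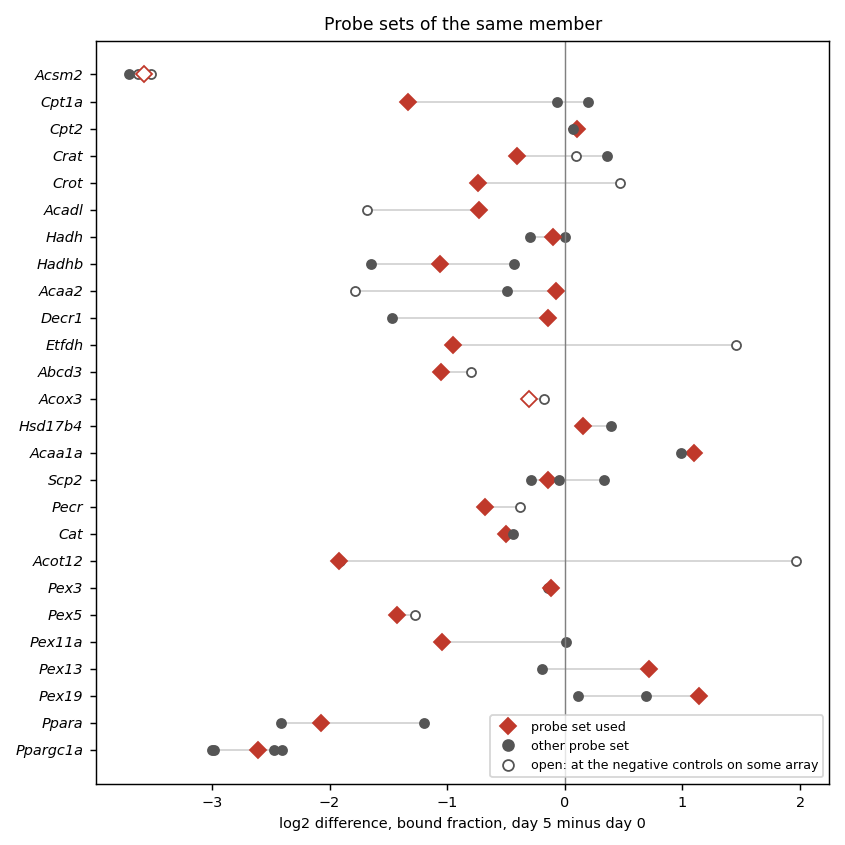
Log2 difference from day 0 to day 5 in the bound fraction for each probe set of the 26 genes that had several, with the probe set used as a red diamond, the others as grey circles, and open symbols for those at or below the negative controls on some array. The probe sets of Ppargc1a and of Acsm2 lie close together, and those of Cpt1a and Decr1 lie more than 1 unit apart.

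For 26 of the genes, more than 1 probe set allowed a check within the arrays. Over the 28 other probe sets above the negative controls on all 15 arrays, 22 had the sign of the one used in this comparison, and 5 differed from it by over 1. Decr1, the dienoyl-CoA reductase, differed by -0.14 on the probe set used and by -1.47 on the other. Cpt1a, Pex19, Pex11a and Pex13 lost their calls with averaged probe sets. Abcd3 and Etfdh did so too, but their other probe sets were above the negative controls on 1 and 10 of the 15 arrays.

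Between day 2 and day 5 of the bound fraction, 0 of the 44 genes passed by limma, where 0.587% of all genes did (0.510% higher, 0.0771% lower), and 7 had an unadjusted p under 0.05. The median was -0.25, beside 0.09 over all genes. The day 5 arrays lay wholly below those of day 2 in 2 of the 44 and wholly above in 0, against 5.19% and 9.49% of all genes. Acot12 differed most (-1.88 ± 0.77 SE, limma adjusted p = 0.257), reading 10.45, 7.27 and 7.84 on day 2 and 6.93, 7.32 and 5.69 on day 5, with array 7 again the high one. Ppargc1a (-1.46 ± 0.59 SE, limma adjusted p = 0.252), Acsm3 (-1.35 ± 0.85 SE, limma adjusted p = 0.458) and Slc27a2 (-1.24 ± 0.37 SE, limma adjusted p = 0.152) followed. Slc27a2 read 13.00, 11.57 and 12.54 on day 2 and 11.73, 11.25 and 10.42 on day 5, so its groups overlapped. Without array 8, 4 genes passed, all lower, and without array 7 the median was 0.01.

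The contrast of the unbound fractions asked whether a fall was also seen outside the tagged ribosomes. Of the 44 genes 8 fell and 0 rose, where 10.4% of all genes passed, 6.44% higher and 3.93% lower. The median was -0.62, beside 0.01 over all genes, and 41 of the 44 had a lower mean on day 5. In 33 of the 44 the day 5 arrays lay wholly below those of day 0, as in 21.6% of all genes.

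Ehhadh led here as well. It read 12.44, 11.83 and 11.90 on day 0 and 9.01, 9.20 and 9.59 on day 5, more than 2 units apart (-2.79 ± 0.59 SE, limma adjusted p = 0.0106). Etfdh went from 11.90, 12.06 and 11.85 to 10.63, 10.24 and 11.03 (-1.30 ± 0.30 SE, limma adjusted p = 0.0171). Crat, which moves acetyl groups on and off carnitine, went from 11.27, 11.58 and 11.15 to 10.19, 10.62 and 10.08 (-1.04 ± 0.28 SE, limma adjusted p = 0.0353). In each of the 3 the groups were apart.

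Acadsb went from 12.26, 12.37 and 12.41 to 11.16, 11.42 and 11.36 (-1.03 ± 0.19 SE, limma adjusted p = 0.0050). Eci1 fell by 0.93 (-0.93 ± 0.23 SE, limma adjusted p = 0.0220) and Hadhb by as much (-0.93 ± 0.24 SE, limma adjusted p = 0.0277). The other 2 probe sets of Hadhb differed by -0.25 and -0.16 here, and with the mean of its probe sets Hadhb lost its call (-0.45). Hadha, the partner gene of Hadhb, went from 10.58, 10.59 and 10.42 to 9.30, 9.38 and 9.45, without overlap. It did not pass (-1.15 ± 0.35 SE, limma adjusted p = 0.0567). The last 2 calls were those of a receptor and its cargo, of which the receptor alone passed in the bound fraction over these days. Pex7 fell by 0.87 (-0.87 ± 0.21 SE, limma adjusted p = 0.0202) and Phyh by 0.78 (-0.78 ± 0.19 SE, limma adjusted p = 0.0204).

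The regulators did not pass in the unbound fraction, although neither overlapped: Ppara read 9.07, 8.99 and 8.98 on day 0 and 7.42, 7.52 and 7.08 on day 5, and Ppargc1a 11.80, 12.17 and 12.44 and then 10.97, 11.03 and 11.06. Their differences were -1.67 ± 0.52 and -1.11 ± 0.59 (SE, limma adjusted p = 0.0600 and 0.281). Each SE rests on a spread shared by all 5 groups, so the scatter of the bound arrays enters these unbound tests. In the later spiral Echs1 differed by -0.77 and Acaa2 by -0.61, neither passing, with their groups apart. Acaa1a, Pex13 and Pex19, which rose in the bound fraction, did not pass here, and the bound and unbound contrasts were compared only through the interaction given above. Proximal tubule markers fell in 2 of 23 (median -1.23), fibroblast markers rose in 7 of 14 and macrophage markers in 8 of 11 (median 2.93). The part of incoming macrophage and fibroblast RNA in the fall was not tested. The count of 8 became 2, 2, 1, 5 and 4 without arrays 4, 5, 13, 14 and 15, in that order, and 1 without the 4 bright arrays. A fit on the 2 unbound groups alone called 21, all lower. Acadsb passed with any single array left out, and Ehhadh was lost without array 13. Leaving out the 4 bright arrays ended the calls of Acadsb and Ehhadh. The other 6 calls were each lost without array 4, 5 or 13, and some of them without array 6, 14 or 15 as well.

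Beyond the 44 genes, 113 further genes were listed from the same pathways and 102 tested. In the bound fraction from day 0 to day 5, 11 of 30 other mitochondrial oxidation and ketone body genes fell and 1 rose (median -0.74), 4 of 36 other peroxisomal genes fell and 1 rose (median -0.45), and 6 of 22 PPAR partners and targets fell and 3 rose (median -0.47). Genes of fatty acid synthesis and storage fell too, 6 of 14, with 1 that rose (median -0.72). Over all genes 10.0% fell and 13.7% rose, and the 4 of 36 peroxisomal genes lie near that share. Named among them, Gcdh, glutaryl-CoA dehydrogenase of lysine breakdown, fell by 2.43 (limma adjusted p = 0.000898) and Mut, the mutase that ends propionate breakdown, by 2.26 (limma adjusted p = 0.0013). Acacb, the acetyl-CoA carboxylase whose product inhibits Cpt1a, fell by 2.73 (limma adjusted p = 0.0068), and Scd1, a desaturase, by 1.66 (limma adjusted p = 0.0041).

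Among PPAR partners and targets, Cyp4b1 and Cyp4a14, cytochromes that hydroxylate fatty acids, fell by 3.24 and 2.61 (limma adjusted p = 0.0013 and 0.0142), and the coactivator Ppargc1b fell by 1.91 (limma adjusted p = 0.0226). Ppard, the gene of the receptor PPARδ, rose by 1.78 (limma adjusted p = 0.0100). Another 2 peroxisomal calls rest on a group at the negative controls. Acot3, a thioesterase, was at least 4.56-fold lower on day 5, and Hao1, a hydroxyacid oxidase, at least 2.15-fold higher, where the dim group is set at the brightest negative control of each array.

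In the unbound fraction over the same days 5 of the 30 mitochondrial, 2 of the 36 peroxisomal, 4 of the 22 PPAR and 3 of the 14 synthesis genes fell, and 2, 0, 2 and 0 rose, beside 3.93% and 6.44% of all genes. Gcdh fell by 2.71 (limma adjusted p = 0.000832), Sirt3, a mitochondrial deacetylase, by 1.85 (limma adjusted p = 0.000341), and Cyp4a14 was again lower (-2.77). Angptl4, also of the PPAR list, rose by 1.52 (limma adjusted p = 0.0186). Day 2 gave fewer calls in the bound fraction, with Gcdh lower by 2.00 and Sirt3 by 1.41 among them. Between the fractions on day 5, 12 of the 102 further genes were lower in the bound fraction and 4 were higher, beside 7.76% and 6.38% of all genes. Cd36, a fatty acid uptake receptor (-2.75), Fabp3, a fatty acid binding protein (-1.83), and Slc22a5, the carnitine importer (-1.65), were among the lower ones. The 4 higher ones were Ppard (1.52), Nrf1, a transcription factor of mitochondrial genes (1.17), Cpt1c, a brain-type carnitine transferase (1.47), and Agxt, a peroxisomal aminotransferase, whose unbound mean was at the negative controls and which was at least 1.63-fold higher in the bound fraction.

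Half-sites were set beside the calls of the bound fraction from day 0 to day 5. The motif AGGTCA was in a window of 3 of the 18 genes that fell, 0 of 2 that rose and 6 of 19 that did not pass, among genes with a RefSeq window.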

How the data were processed

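One-colour expression arrays from 15 samples in 5 groups of 3 were used. RNA was amplified in 1 round, per the labels' protocols. The authors deposited 1 table of linear intensity values for 45101 probe sets; the method that summarised the probes is not given in the sources used here. From it, log2(intensity + 1) was computed and quantile normalized over all arrays. Of the probe sets, 34945 carried 1 gene in the platform annotation, 932 several and 9160 none, beside 64 controls. One probe set per gene was kept, by highest mean, and genes above the 25th percentile on at least 3 arrays were tested. The floor is the brightest of 27 negative controls per array; the number of arrays limits the precision. limma 3.58.1 in R 4.3.3 fitted 1 mean per group and 1 spread per gene, shared by all 5 groups. It was used with 7 contrasts, Benjamini-Hochberg adjustment and a threshold of 0.05. The fit was tested on simulated data. Full statistics are given for members that passed, at most 12 per comparison, or for the 4 with the largest difference where fewer than 4 passed, and from each further list for at most 4 that passed. The members and lists were chosen with earlier results of these data known. A brightness term was added after seeing the data. Figures used matplotlib 3.10.9.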

Additional observations from a re-analysis of the deposited data

How the results depend on the processing

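With 3 arrays per group, single calls were fragile: of 42 calls of members, 2 held under every alternative run (Pex14 between fractions on day 0, Ehhadh in the bound fraction from day 0 to day 5) and 2 turned sign, both with dim probe sets averaged in. No paired analysis was run because the labels state no pairing of bound and unbound fractions. A pairing that exists without a label is therefore ignored here. Leaving out 1 array at a time, the number of members called ranged from 2 to 4 between fractions on day 0, from 1 to 6 between fractions on day 5, from 2 to 15 in the bound fraction from day 0 to day 2, from 8 to 19 from day 0 to day 5, from 0 to 4 from day 2 to day 5 (median of the members between -0.35 and 0.0093), and from 1 to 6 in the unbound fraction. The change in enrichment gave 0 calls throughout, in a median that turned to -0.052 without array 1. Centring each array on its median shifted the all-gene median, from 0.03 to 0.41 between fractions on day 5, from 0.12 to 0.34 for the bound fraction from day 0 to day 5 and from 0.01 to -0.22 for the unbound fraction. It gave 2 member calls between fractions on day 0 (1 higher, 1 lower), 2 on day 5 and 11 in the bound fraction on day 5 (2 higher, 9 lower), and turned the medians of the members to 0.21 between fractions on day 5 and to 0.025 from day 2 to day 5. The latter was 0.0093 without array 7. Relative to all genes these medians stayed lower under centring. A pseudocount of 16 gave 8 calls between fractions on day 0 and 7 in the bound fraction on day 2. Without the 4 bright arrays the calls were 1 between fractions on day 0, 0 on day 5, 0 in the bound fraction on day 2, 8 on day 5 and 1 in the unbound fraction. Fits on the groups of a comparison alone gave 12 calls between fractions on day 5, 0 in the bound fraction on day 2 and 21 in the unbound fraction. The mean of a gene's probe sets turned Abcd3 between fractions on day 5 (0.053) and Etfdh in the bound fraction on day 5 (0.25); their other probe sets were above the negative controls on 1 and 10 of the 15 arrays, so these turns average in values near background. Testing dim genes too, or adding the brightness term, moved no member count by more than 1.5 times. The cause of these changes was not tested. Fewer arrays, and in the fits on single comparisons fewer residual degrees of freedom, are part of how these alternatives are built. Differences near the negative controls, as in Acox3, are limited by signal over background. Acsm2 was at or below the negative controls on array 9 only.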

Other observations

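Of 12 markers of striated muscle tested, 3 (Myom2, Myl7 and Actn3) were higher in the bound fraction on day 0 and 2 on day 5. Their levels were 12.39, 11.68 and 11.10 for Myom2, 10.88, 9.85 and 9.61 for Myl7 and 7.88, 10.63 and 11.01 for Actn3 on the bound day 0 arrays. The median over the list lay between 4.10 and 4.67 there, against 4.25 to 4.46 on the unbound day 0 arrays, while the summed level of the list ran from 12.34 to 12.92 on the bound day 0 arrays, against 8.40 to 8.53 on the unbound day 0 arrays. At the same time 6 to 9 of the 14 listed muscle genes were at or below the negative controls on each bound day 0 array, Ckm and Myh4 on all 3. The adipocyte list gave 1 of 7 genes lower in the bound fraction on each of the 2 days and 0 higher, with Lep at or below the negative controls on 14 of 15 arrays. The part of such cells in the values of the fatty acid genes was not tested.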
